A study of Mus musculus with 20 samples.

Results

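The genes described are 3 caspases (Casp1, Casp8 and Casp9), the inflammasome sensor Nlrp3 and its adaptor Pycard, and 3 genes of the interleukin 1 family (Il1b, Il18 and Il1rn). They were taken by gene name from the array annotation, and all 8 were found among its 27827 gene names. Kidney RNA of C57BL/6 mice was hybridised to Agilent single-colour arrays in 5 groups of 4 arrays. Control mice had neither surgery nor treatment. IRI mice had both renal pedicles clamped for 45 min, followed by 6 h of reperfusion. IRI+Hemin mice received 25 mg/kg of Hemin, an inducer of heme oxygenase 1, intraperitoneally 24 h ahead of the same injury. IPC+IRI mice had a shorter clamping of 15 min and underwent the injury 7 days later. Hemin mice received the compound with no surgery, and the interval to tissue collection is not given for them in the sources used here. The methods describe male animals of 8 to 12 weeks. Control and Hemin mice had no sham operation, so anaesthesia, incision and ischemia cannot be told apart in any comparison with them. The labels do not say whether each array held a single animal, so the tests measure the spread between these samples.

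Caspases are cysteine proteases that are made as inactive precursors. Caspase 8 is the initiator recruited by death receptors through the adaptor Fadd, and caspase 9 is the initiator activated on the apoptosome by Apaf1 and cytochrome c. Caspase 1 is activated on inflammasomes, in which a sensor such as Nlrp3 joins the caspase through the adaptor ASC, the product of Pycard. Active caspase 1 cleaves the precursors of interleukin 1 beta (Il1b) and interleukin 18 (Il18) and the pore former gasdermin D. Il1rn encodes the interleukin 1 receptor antagonist, which occupies the receptor without signalling. All of these steps act on protein, whereas the arrays measured transcript levels alone.

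The sequences that measured the members were 60-base probes, and they show which stretch of each transcript a value stands for. Il1rn and Pycard had 2 probes each, the other members 1 probe each. The Il1b and Il18 probes were printed as 10 spots per array and the others as 1 spot. Genome positions follow the annotation in the scanner files, which uses mouse build mm9. The Casp1 probe (A_51_P142861, chr9:5306226-5306728, plus strand) and the Il18 probe (A_51_P153565, chr9:50387470-50389598, plus strand) span 503 and 2129 bases of genome, more than their own length, so each joins separate exons. The Casp8 probe (A_51_P247799, chr1:58901601-58901660) and the Nlrp3 probe (A_52_P650540, chr11:59378554-59378613) lie on the plus strand in single blocks. The Pycard probes (A_51_P438820, chr7:135136221-135136280, and A_51_P438821, chr7:135136241-135136300) lie on the minus strand and are offset from each other. Capitals mark the 40 bases that both Pycard probes share, so they are not independent readings of the gene. Of Il1rn, the exon-joining probe A_51_P307166 (chr2:24203035-24204055, plus strand) is shown, because it did not detect the gene.
Casp1: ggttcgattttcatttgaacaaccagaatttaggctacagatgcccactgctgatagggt
Casp8: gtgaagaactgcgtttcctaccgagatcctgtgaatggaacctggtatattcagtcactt
Nlrp3: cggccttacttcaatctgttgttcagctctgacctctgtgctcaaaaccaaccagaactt
Pycard, A_51_P438820: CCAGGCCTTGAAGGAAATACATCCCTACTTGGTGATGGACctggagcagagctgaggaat
Pycard, A_51_P438821: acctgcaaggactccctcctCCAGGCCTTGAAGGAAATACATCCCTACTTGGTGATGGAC
Il18: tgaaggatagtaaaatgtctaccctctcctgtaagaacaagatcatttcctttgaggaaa
Il1rn, A_51_P307166: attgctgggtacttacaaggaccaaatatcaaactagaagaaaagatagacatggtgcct
The remaining probes were A_52_P663602 for Casp9 (chr4:141371786-141371845, plus strand), A_51_P212782 for Il1b (chr2:129190347-129190406, minus strand) and A_52_P431159 for Il1rn (chr2:24206125-24206184, plus strand).

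Levels are given as log2 expression, the log2 of the processed signal over the 75th percentile of its array, so that 0 lies at that percentile. Levels are compared between arrays for 1 gene and not between genes. The 75th percentile itself ranged from 149.7 to 369.9 intensity units over the 20 arrays, and 56.8% to 67.3% of the probes of an array were well above background, a mark set by the scanner software. The arrays of a group shared a scan time in the file headers, from which a slide of its own was inferred for each group. The labels name no slide. Scans were made on 3 days, with Control and IRI sharing a day, IPC+IRI and Hemin sharing another, and IRI+Hemin alone on its own. With this layout, slide and group cannot be told apart. All 10 kidney tubule markers, among them Slc34a1, Lrp2, Umod and Aqp2, were well above background on every array, as the label of the tissue requires. The tubule injury gene Lcn2 rose by 5.04 ± 0.43 (log2 fold change ± SE, adjusted p = 1.07e-07) in IRI vs Control. In bulk kidney RNA, fewer cells of a type and less RNA per cell cannot be told apart.

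With Il1rn set aside, some changes in the 5 main comparisons had no overlap of arrays and stayed called on leaving out each array in turn. These were higher Il1b and Casp8 and lower Pycard after IRI, lower Casp8 in IPC+IRI than in IRI, and higher Pycard in both protected groups than in IRI. A change was called at an adjusted p below 0.05 (limma, Benjamini-Hochberg over all genes tested), with no fold cutoff. In IRI vs Control, Casp8, Il1b and Il1rn rose and Casp9, Nlrp3 and Pycard fell. These were 6 of 8 members, where 51.1% of all 17711 genes tested were called, 16.3% higher and 34.8% lower. The arrays of 5 members did not overlap, as for 46.6% of all genes. In IPC+IRI vs IRI, Casp9 and Pycard rose and Casp8 fell. These 3 of 8 members, also those without overlap, compare with 43.4% of all genes called (25.8% higher, 17.7% lower) and 37.5% without overlap. In IRI+Hemin vs IRI, Casp9 and Pycard rose, Il1b fell and Il1rn was called lower. These were 4 of 8 members, with 3 of 8 free of overlap, against 43.8% of all genes called (25.8% higher, 18% lower) and 38.9% without overlap. The members' shares lie near those over all genes in both comparisons with IRI. Against Control, IPC+IRI had only Il1b called (higher) among the 7 members tested, and 0 free of overlap, against 55.7% of all genes called (22.1% higher, 33.6% lower) and 45.3% without overlap. Against Control, limma called 0 of 7 members in the Hemin group, and 1 was free of overlap, against 35.7% of all genes called (18.1% higher, 17.6% lower) and 37.6% without overlap. Of these 7, 3 had an unadjusted p under 0.05, and SAM (significance analysis of microarrays) also called 0. Il1rn entered every test against IRI only through its IRI arrays, where it was high, so its calls are no support for these counts. Without it, 5 of 7 members were called in IRI vs Control with 4 free of overlap, 3 of 7 in IRI+Hemin vs IRI with 2 free of overlap, and 3 of 7 in IPC+IRI vs IRI, all free of overlap.

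**Figure D1:**
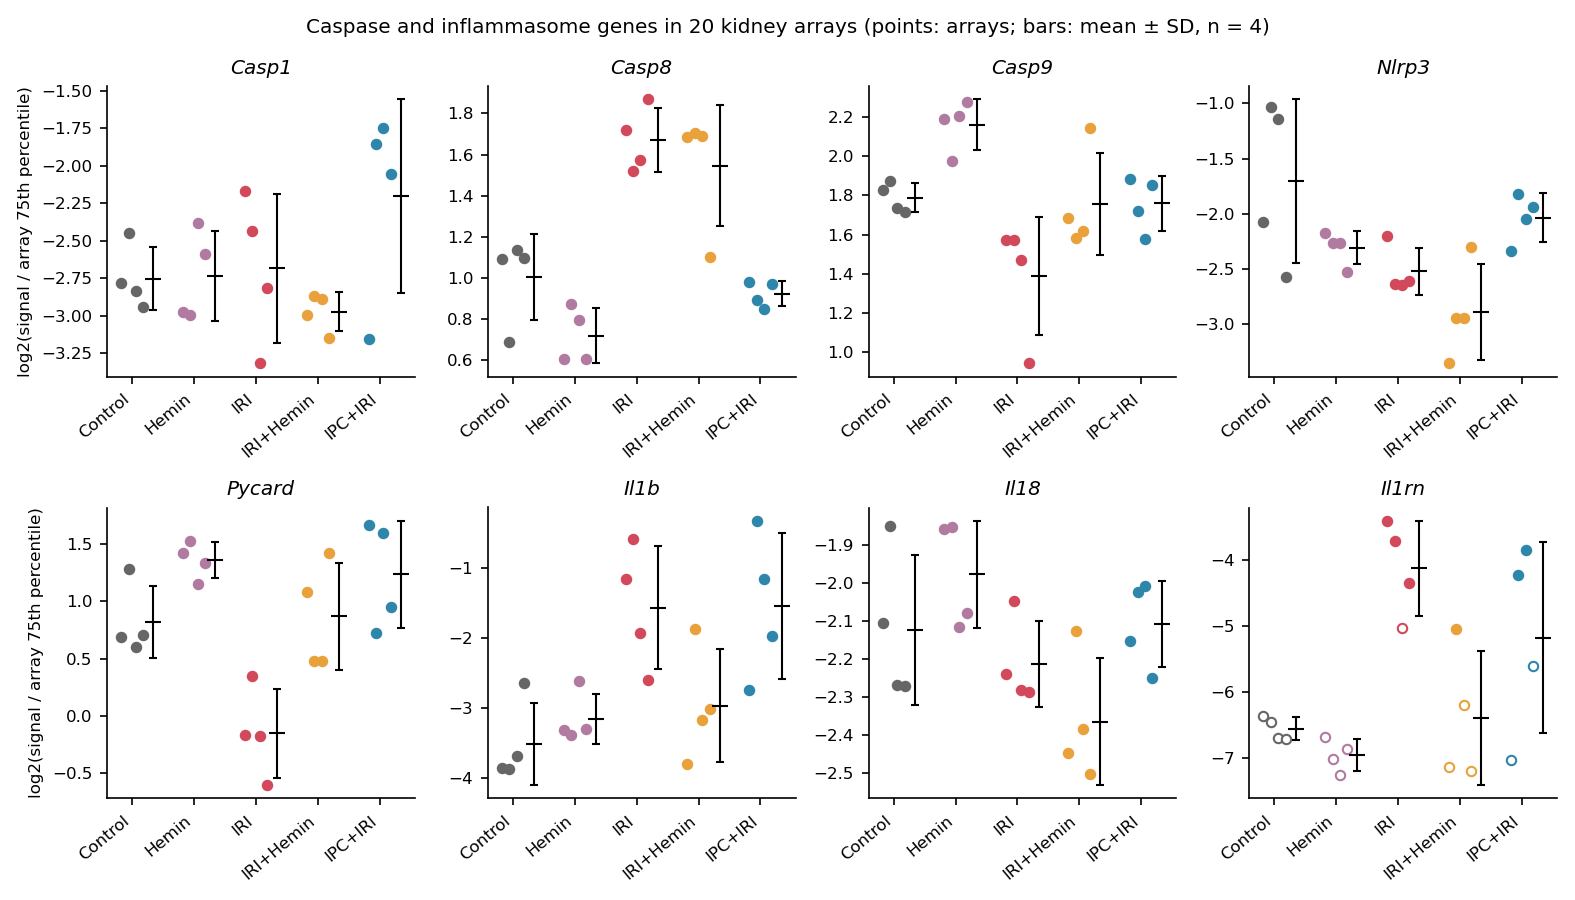
Log2 expression (y axis, each gene on its own scale) of the 8 genes on the 20 arrays by group (x axis). Points are arrays, filled where the gene was well above background, and bars give the mean ± SD of 4 arrays. The 4 IRI arrays lie above the 4 Control arrays for Casp8, Il1b and Il1rn and below them for Casp9 and Pycard.

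Casp8, the initiator of death receptor apoptosis, was higher in both groups that met the injury without preconditioning. The 4 Control arrays read 1.09, 0.69, 1.14 and 1.10 in log2 expression. The IRI arrays read 1.72, 1.52, 1.57 and 1.87, and the IRI+Hemin arrays 1.68, 1.70, 1.69 and 1.10. The IPC+IRI arrays read 0.98, 0.89, 0.85 and 0.97, and the Hemin arrays 0.61, 0.87, 0.80 and 0.61. All IRI arrays were above all Control, IPC+IRI and Hemin arrays, and 1 IRI+Hemin array sat among the Control arrays. Casp8 rose by 0.67 ± 0.14 (log2 fold change ± SE), or 1.59-fold, in IRI vs Control (adjusted p = 6.95e-04). It was 1.68-fold lower in IPC+IRI than in IRI, a fall of 0.75 ± 0.14 on the log2 scale (adjusted p = 4.21e-04). The IRI+Hemin and IRI groups differed by -0.13 ± 0.14 (adjusted p = 0.491). In order of group means, IRI (1.67 ± 0.16, SD, n = 4) and IRI+Hemin (1.55 ± 0.30) were followed by Control (1.00 ± 0.21), IPC+IRI (0.92 ± 0.06) and Hemin (0.72 ± 0.14). Of the neighbours in this order, only IRI+Hemin and Control differed (0.54 ± 0.14, adjusted p = 0.00301). Without normalization between arrays, the difference was 0.81 in IRI vs Control (adjusted p = 0.0557), larger but no longer called, and -0.43 in IPC+IRI vs IRI (adjusted p = 0.293), the highest adjusted p values over the settings tried. SAM at a median of 0 false calls did not call Casp8 in either comparison.

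The groups that received Hemin allow a direct test for Casp8 of whether the change after IRI depended on the compound. The log2 difference between injured and uninjured mice was 0.83 with Hemin and 0.67 without it. The difference of these values was 0.16 ± 0.20 (adjusted p = 0.691). Hemin alone differed from Control by -0.28 ± 0.14 (adjusted p = 0.118), and without Control replicate 2, the lowest Control array, that value was -0.39 (adjusted p = 0.0301).

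Casp9, the initiator of the mitochondrial pathway, moved little. The Control arrays read 1.83, 1.87, 1.74 and 1.72, and the IRI arrays 1.57, 1.57, 1.47 and 0.94. The IRI+Hemin arrays read 1.69, 1.58, 1.62 and 2.14, the IPC+IRI arrays 1.88, 1.72, 1.58 and 1.86, and the Hemin arrays 2.19, 1.97, 2.20 and 2.28. The IRI arrays were below all arrays of the other groups, with the lowest values of the IRI+Hemin and IPC+IRI groups close to the highest IRI array. Casp9 fell by 0.40 ± 0.15 in IRI vs Control (adjusted p = 0.0291), a 1.32-fold decrease. It was 0.37 ± 0.15 higher in IPC+IRI than in IRI (adjusted p = 0.0479) and 0.37 ± 0.15 higher in IRI+Hemin than in IRI (adjusted p = 0.0484). These calls lay close to the threshold. Without IRI replicate 4 the adjusted p was 0.117, 0.177 and 0.18 in the same order, and the sizes were -0.25, 0.22 and 0.22. The call in IRI vs Control was also lost without Control replicate 1 (-0.39, adjusted p = 0.0588) or 2 (-0.37, 0.0625), at nearly the same size. That in IPC+IRI vs IRI was lost without IRI replicate 3 (0.40, adjusted p = 0.0624) or IPC+IRI replicate 1 (0.33, 0.109), 2 (0.38, 0.0658) or 4 (0.34, 0.102). That in IRI+Hemin vs IRI was lost without IRI replicate 3 (0.40, adjusted p = 0.0629) or IRI+Hemin replicate 1 (0.39, 0.0611) or 4 (0.24, 0.175).

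The Hemin group had the highest Casp9 mean, at 2.16 ± 0.13 (SD, n = 4), and all of its arrays were above all Control arrays. The difference of 0.37 ± 0.15 had an adjusted p of 0.0538 and was not called. It was called in the fit of those 8 arrays alone (adjusted p = 0.0166), without Hemin replicate 2 (0.44, adjusted p = 0.0445), with genes well above background on all arrays compared (adjusted p = 0.0492) and, at 0.94, without normalization between arrays (adjusted p = 8.99e-04). Its adjusted p ran from 8.99e-04 to 0.14 over all settings. Control, IPC+IRI and IRI+Hemin had means of 1.79, 1.76 and 1.76, and neighbours among them did not differ beyond their spread (adjusted p of 0.88 and 0.996).

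Casp1, the inflammasome caspase, passed the threshold in none of the 5 comparisons. Its arrays spread most in IPC+IRI (SD 0.65) and IRI (SD 0.50) and least in IRI+Hemin (SD 0.13). The Control arrays read -2.78, -2.45, -2.84 and -2.94 and the Hemin arrays -2.98, -3.00, -2.38 and -2.59. The IRI arrays read -2.17, -2.44, -3.32 and -2.82, and the IRI+Hemin arrays -2.99, -2.87, -2.89 and -3.15. The IPC+IRI arrays read -3.16, -1.85, -1.75 and -2.05. Of the IPC+IRI arrays, 3 exceeded all other arrays of the series and the remaining one was lower than every Control array. The log2 difference was 0.07 ± 0.27 in IRI vs Control (adjusted p = 0.854) and 0.55 ± 0.27 in IPC+IRI vs Control (adjusted p = 0.0931). Without IPC+IRI replicate 1 the IPC+IRI group was higher than Control by 0.87 (adjusted p = 0.00322) and higher than IRI by 0.80 (adjusted p = 0.00889). With all arrays, the difference from Control was called after quantile normalization (0.80, adjusted p = 0.0137) and without normalization (1.01, adjusted p = 0.0296). In IRI+Hemin vs IRI the value was -0.29 ± 0.27 (adjusted p = 0.408), and normexp background correction gave -0.50 (adjusted p = 0.044). No neighbours in the order IPC+IRI, IRI, Hemin, Control and IRI+Hemin differed, and the outermost groups of this order were 0.77 ± 0.27 apart (adjusted p = 0.072).

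Nlrp3, the sensor, was lower after IRI, but the Control arrays disagreed among themselves. They read -2.07, -1.03, -1.14 and -2.57, a spread of 0.74 (SD), against 0.21 in IRI. The IRI arrays read -2.20, -2.63, -2.64 and -2.61, and the IRI+Hemin arrays -3.35, -2.95, -2.94 and -2.30. The IPC+IRI arrays read -2.34, -1.82, -2.05 and -1.94, and the Hemin arrays -2.18, -2.27, -2.26 and -2.52. Control replicate 4 lay among the IRI arrays, so these groups overlapped, while the other 3 Control arrays were above all 4 IRI arrays. Nlrp3 fell by 0.82 ± 0.28 in IRI vs Control (adjusted p = 0.0201), or 1.76-fold. The exact permutation test (two-sided) for these 8 arrays gave p = 0.0571, where 4 against 4 arrays cannot go below 0.0286.

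The call for Nlrp3 was lost without Control replicate 2 (-0.59, adjusted p = 0.0809) or Control replicate 3 (-0.63, adjusted p = 0.077). With normexp background correction the value was -0.21 (adjusted p = 0.618), and over all settings the adjusted p ran from 0.0015 to 0.618. Neither protective measure brought a call: the difference from IRI was 0.48 ± 0.28 in IPC+IRI (adjusted p = 0.164) and -0.37 ± 0.28 in IRI+Hemin (adjusted p = 0.3). The first of these was called in the fit of those 8 arrays alone (adjusted p = 0.0375) and without normalization between arrays (0.80, adjusted p = 0.0278). Hemin and Control differed by -0.60 ± 0.28 (adjusted p = 0.0974), and without Control replicate 4 by -0.89 (adjusted p = 0.0133). IPC+IRI and Control differed by -0.33 ± 0.28 (adjusted p = 0.323), and without the same array by -0.62 (adjusted p = 0.0437). IRI+Hemin had the lowest mean, -2.89 ± 0.43 (SD, n = 4), and was 1.18 ± 0.28 lower than Control (adjusted p = 0.0015). No neighbours in the order Control, IPC+IRI, Hemin, IRI and IRI+Hemin differed beyond their spread.

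Pycard, the adaptor, gave the steadiest pattern of the 8 genes: its level was lowest in IRI and higher in every other group. The Control arrays read 0.69, 1.28, 0.60 and 0.71, and the IRI arrays -0.16, 0.35, -0.18 and -0.60. The IRI+Hemin arrays read 1.09, 0.48, 0.48 and 1.43, the IPC+IRI arrays 1.67, 0.73, 1.59 and 0.95, and the Hemin arrays 1.42, 1.52, 1.16 and 1.34. No array of another group was as low as any IRI array. Pycard fell by 0.97 ± 0.25 in IRI vs Control (adjusted p = 0.00399), which is 1.96-fold. It was 2.61-fold higher in IPC+IRI than in IRI (log2 fold change 1.38 ± 0.25, adjusted p = 3.68e-04) and 2.02-fold higher in IRI+Hemin than in IRI (1.02 ± 0.25, adjusted p = 0.00366).

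Pycard in IPC+IRI (1.24 ± 0.47, SD, n = 4) and IRI+Hemin (0.87 ± 0.47) were 0.37 ± 0.25 apart, which was not called (adjusted p = 0.361). The differences from Control, 0.42 ± 0.25 in IPC+IRI (adjusted p = 0.172) and 0.05 ± 0.25 in IRI+Hemin (adjusted p = 0.881), were not called either. Without normalization between arrays the first of these was 0.87 (adjusted p = 0.0021). Hemin had the highest mean, 1.36 ± 0.16, and differed from Control by 0.54 ± 0.25 (adjusted p = 0.103). Without Control replicate 2, the highest Control array, that difference was 0.69 (adjusted p = 0.0437), and it was also called in the fit of those 8 arrays alone (adjusted p = 0.0289) and, at 1.11, without normalization (adjusted p = 4.22e-04). The 3 calls against IRI were lost with SAM, and those in IPC+IRI vs IRI and in IRI vs Control also with the fold cutoff of the study, which the methods do not state for IRI+Hemin vs IRI. They held in every other setting, with the log2 values between -1.13 and -0.73 in IRI vs Control, 1.07 and 1.70 in IPC+IRI vs IRI, and 0.83 and 1.38 in IRI+Hemin vs IRI. All 3 comparisons share the IRI arrays.

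The probes of Pycard, whose shared bases are printed above, gave the same order of groups, with 48.6%, 46.1% and 46.4% of all single probes tested called in the 3 comparisons that follow. In IRI vs Control, A_51_P438820 fell by 1.05 ± 0.28 (adjusted p = 0.00429) and A_51_P438821 by 0.88 ± 0.23 (adjusted p = 0.00474). Between IRI and IPC+IRI they rose by 1.49 ± 0.28 and 1.27 ± 0.23. Between IRI and IRI+Hemin they rose by 1.11 ± 0.28 and 0.91 ± 0.23.

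**Figure D2:**
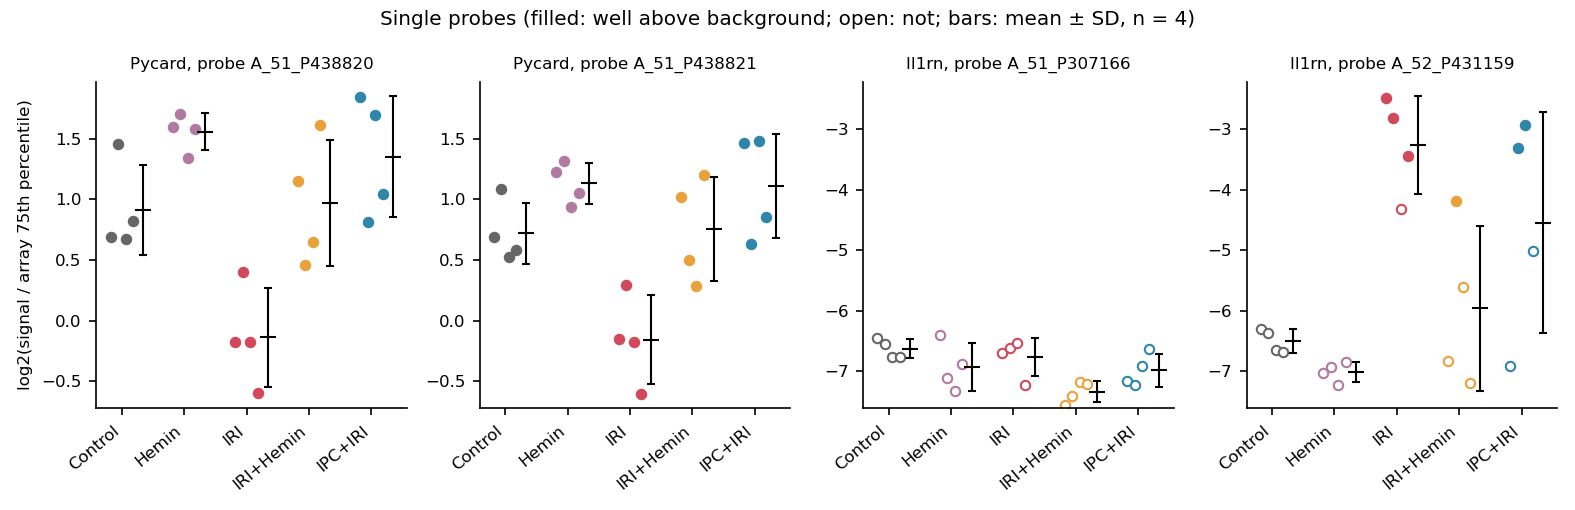
Log2 expression (y axis, shared within each gene) of the single probes of Pycard and Il1rn on 20 arrays by group (x axis), filled where the probe was well above background, with bars for the mean ± SD of 4 arrays. Both Pycard probes are lowest on the IRI arrays. Of Il1rn, 1 probe is drawn unfilled on all arrays and the other is filled on 3 IRI, 1 IRI+Hemin and 2 IPC+IRI arrays.

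Il1b, the cytokine precursor cleaved by caspase 1, was higher after IRI with or without preconditioning. It was called lower in IRI+Hemin than in IRI, a call that several settings lost. The Control arrays read -3.86, -3.88, -3.69 and -2.65 and the Hemin arrays -3.32, -3.39, -2.63 and -3.31. The IRI arrays read -1.16, -0.59, -1.93 and -2.60. The IRI+Hemin arrays read -3.81, -1.88, -3.18 and -3.02, and the IPC+IRI arrays -2.74, -0.33, -1.16 and -1.97. The lowest IRI array lay just above the highest Control array, and the arrays of the 3 injured groups overlapped. Il1b rose by 1.95 ± 0.50 in IRI vs Control (adjusted p = 0.00372), or 3.87-fold. In IPC+IRI vs Control it rose by 1.97 ± 0.50 (adjusted p = 0.00304), or 3.92-fold, and IPC+IRI replicate 1 overlapped Control replicate 4. IPC+IRI and IRI differed by 0.02 ± 0.50 (adjusted p = 0.98), a difference far smaller than the spread of either group (SD 1.04 and 0.88).

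In IRI+Hemin vs IRI, Il1b fell by 1.40 ± 0.50 (adjusted p = 0.0314), or 2.65-fold, and the arrays of these groups overlapped. The exact permutation test (two-sided) gave p = 0.0857. The call was lost on leaving out any of 5 arrays in turn, namely IRI replicate 1 (-1.27, adjusted p = 0.0789) or 2 (-1.08, 0.108), and IRI+Hemin replicate 1 (-1.13, 0.0988), 3 (-1.33, 0.0645) or 4 (-1.39, 0.0571). It was also lost without normalization between arrays (-1.04, adjusted p = 0.12) and in the fit of those 8 arrays alone (adjusted p = 0.0524). The increase after IRI was 1.95 without Hemin and 0.19 with it. The test of that difference gave -1.76 ± 0.71 (unadjusted p = 0.0237, adjusted p = 0.147) and did not pass. IRI+Hemin and Hemin, neighbours in the order of group means, differed by 0.19 ± 0.50 (adjusted p = 0.784). With normexp background correction the rise of Il1b was 0.79 in IRI vs Control (adjusted p = 0.0589) and 0.70 in IPC+IRI vs Control (adjusted p = 0.0641), the highest adjusted p values over the settings.

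The 10 spots of the Il1b probe had a median SD of 0.11 in log2 within an array, with between 8 and 10 spots kept. The highest SD was 0.49, on IRI+Hemin replicate 4, whose spots ran from -4.34 to -2.72. Over single spots, log2 values ran from -4.19 to -2.54 on the Control arrays and from -2.73 to -0.49 on the IRI arrays. The SD between arrays of a group, 0.36 to 1.04, was larger than that median in every group.

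**Figure D3:**
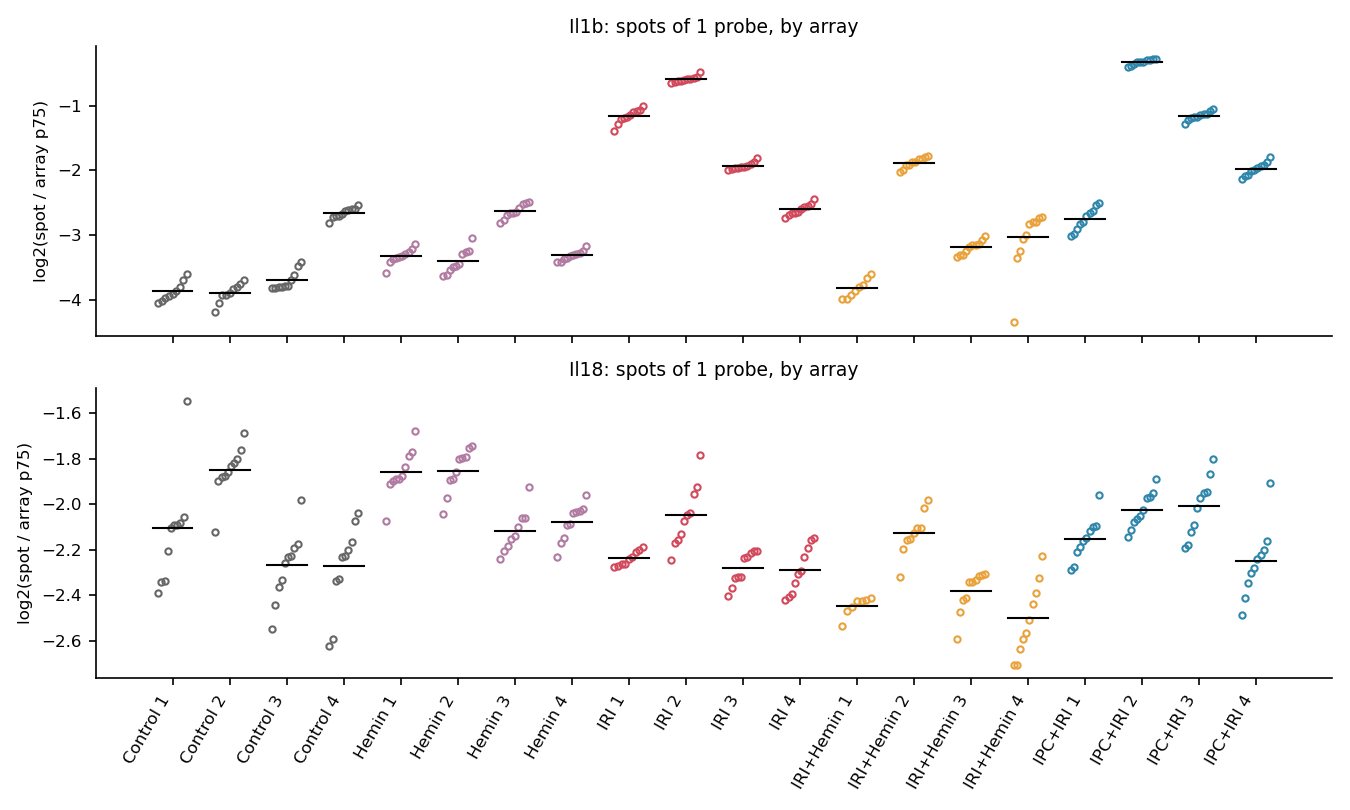
Log2 value (y axis) of every retained spot of the Il1b probe (upper panel) and the Il18 probe (lower panel) on each of the 20 arrays (x axis), with a line at the array's mean. For Il1b the spots run from -2.73 to -0.49 on the IRI arrays and from -4.19 to -2.54 on the Control arrays, and those of IRI+Hemin replicate 4 alone from -4.34 to -2.72. For Il18 the group means run from -2.37 in IRI+Hemin to -1.98 in Hemin.

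Il18, the other cytokine cleaved by caspase 1, held nearly the same level in all groups. The Control arrays read -2.11, -1.85, -2.27 and -2.27, the IRI arrays -2.24, -2.05, -2.28 and -2.29, and the Hemin arrays -1.86, -1.85, -2.12 and -2.08. The IRI+Hemin arrays read -2.45, -2.13, -2.38 and -2.50, and the IPC+IRI arrays -2.15, -2.02, -2.01 and -2.25. The groups overlapped in all 5 comparisons. The log2 difference was -0.09 ± 0.12 in IRI vs Control (adjusted p = 0.546), 0.11 ± 0.12 in IPC+IRI vs IRI (adjusted p = 0.484) and -0.15 ± 0.12 in IRI+Hemin vs IRI (adjusted p = 0.312). Neighbours in the order Hemin, IPC+IRI, Control, IRI and IRI+Hemin did not differ. The groups at its ends did: IRI+Hemin was lower than Hemin by 0.39 ± 0.12 (adjusted p = 0.0125), with no overlap of their arrays. Hemin and Control differed by 0.15 ± 0.12 (adjusted p = 0.345), and without normalization between arrays by 0.72 (adjusted p = 0.0157). The spots of the Il18 probe had a median SD of 0.10 within an array.

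Il1rn, the receptor antagonist, was near the detection limit and rose in IRI. It was well above background on 6 of 20 arrays, namely IRI replicates 1, 2 and 4, IRI+Hemin replicate 2 and IPC+IRI replicates 2 and 3, and on none of the Control or Hemin arrays. The IRI arrays read -3.41, -3.71, -5.04 and -4.35, the IRI+Hemin arrays -7.14, -5.04, -6.19 and -7.20, and the IPC+IRI arrays -7.03, -4.23, -3.85 and -5.61. The 4 Control arrays lay between -6.71 and -6.37 and the 4 Hemin arrays between -7.27 and -6.68. These last values are below the detection limit and have no order.

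All of the Il1rn signal came from A_52_P431159. On this probe, the IRI mean was 2.75-fold above the detection floor of the Control arrays and 3.90-fold above that of the Hemin arrays. That floor is the lowest signal of any probe well above background on each array of the dim group. The IRI mean includes replicate 3, which was not well above background, so these are approximate bounds. The adjusted p of the gene was 0.00165 against Control and 3.49e-04 against Hemin. Il1rn entered these tests only through its IRI arrays, so they are no support for the rise. IPC+IRI had 2 of 4 arrays detected, and no test against Control was made. In IRI+Hemin vs IRI, 1 against 3 arrays were detected. The adjusted p was 0.00364, but 3 of the 4 IRI+Hemin values are below the detection limit and the undetected probe is averaged in, so no size is given. In IPC+IRI vs IRI, with 2 against 3 arrays detected, Il1rn was not called (adjusted p = 0.14). It was called without IPC+IRI replicate 3 (adjusted p = 0.0425), which leaves that group 1 detected array. The interaction of Hemin with IRI was fitted for Il1rn (adjusted p = 0.17), but neither Control nor Hemin had a detected array, so it has no interpretable size. With normexp background correction the adjusted p in IRI vs Control was 0.29. It was the one of the 15 settings with an adjusted p for Il1rn there in which the call was lost. SAM called Il1rn in IRI vs Control and none of the other members in the 5 main comparisons. The second probe, A_51_P307166, was not well above background on any array, with means between -7.34 in IRI+Hemin and -6.63 in Control.

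**Figure D4:**
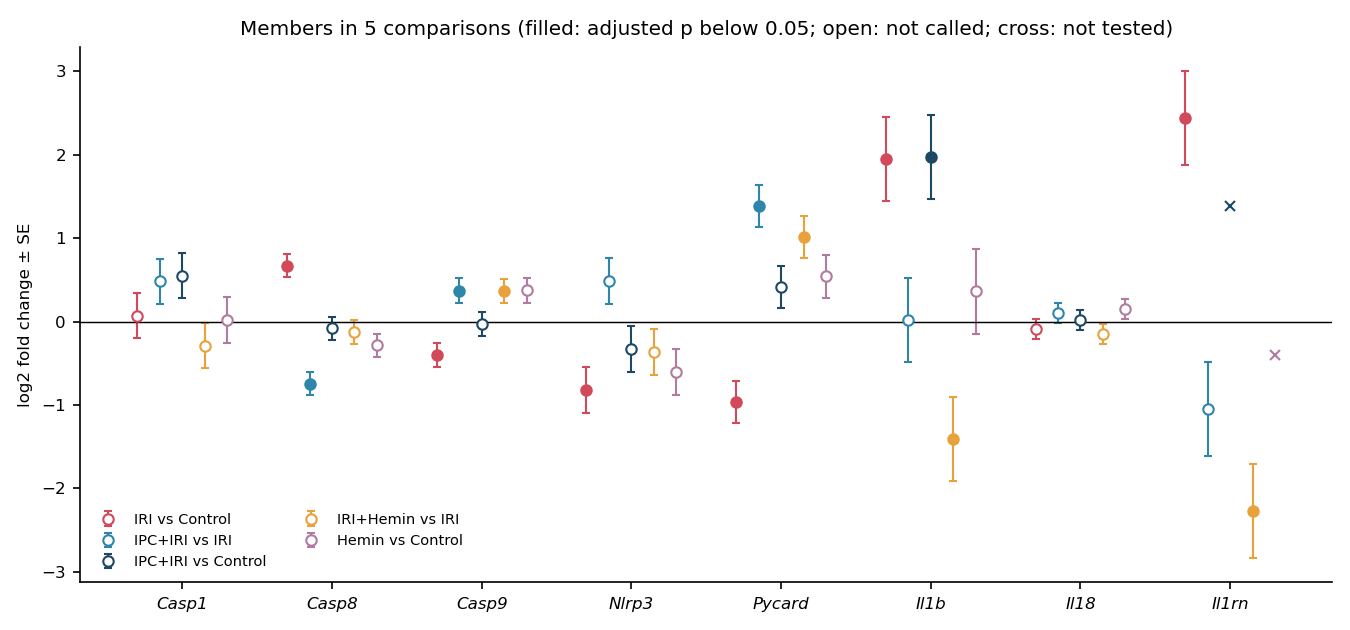
Log2 fold change ± SE (y axis) of the 8 genes (x axis) in 5 comparisons, distinguished by colour. Filled points passed an adjusted p below 0.05, open points did not, and crosses mark Il1rn where it was not tested. The Il1rn points rest in part on arrays below the detection limit, so their heights are not folds. Pycard is filled below 0 in IRI vs Control and above 0 in both comparisons of a protected group with IRI.

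The other pairs of groups were fitted in the same model. In IRI vs Hemin, 5 of 8 members were called, against 59.8% of all genes: Casp8, Il1b and Il1rn were higher and Casp9 and Pycard lower in IRI, with Il1rn again tested through its IRI arrays alone. In IRI+Hemin vs Hemin, 3 of 7 were called, against 44.7%, with Casp8 higher and Casp9 and Il18 lower. In IRI+Hemin vs Control, 2 of 7 were called, against 57.7%, with Casp8 higher and Nlrp3 lower. In IPC+IRI vs Hemin, 2 of 7 were called, against 36.7%, with Il1b higher and Casp9 lower. Between the protected groups, IPC+IRI vs IRI+Hemin, 1 of 7 was called, against 11.5%: Casp8 was lower in IPC+IRI by 0.62 ± 0.14 (adjusted p = 0.00887). Their Il1b levels differed by 1.42 ± 0.50 (adjusted p = 0.0744) and their Nlrp3 levels by 0.85 ± 0.28 (adjusted p = 0.0542), both higher in IPC+IRI and neither called. In the interaction of Hemin with IRI, limma called 0 of 8 members, against 7.69% of all genes, and 2 members, Il1b and Il1rn, had an unadjusted p under 0.05, the second of them below the detection limit in both uninjured groups. SAM was not run on the interaction.

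Levels of leukocyte markers are given beside those of the cytokine genes. Of 15 neutrophil markers, 14 were on the arrays. Their summed level, in multiples of the 75th percentile, ran from 0.548 to 0.823 on the Control arrays, 0.703 to 1.79 in Hemin, 2.59 to 8.29 in IRI, 2.34 to 9.68 in IRI+Hemin and 6.38 to 19.3 in IPC+IRI. S100a9 alone made up 28.2% to 50.4% of the sum in Control and 82.6% to 86.8% in IPC+IRI. Of the 14, 8 were well above background on no Control array, and a marker could be tested through the group in which it was high. Of the 10 tested in IPC+IRI vs Control, 2 were well above background on all 8 arrays, and of these S100a9 rose and Mpo fell. Among the 3 tested in IRI vs Control, only S100a9 was so detected, and the counts of the other markers called are no support for a direction. S100a9, a calcium-binding protein of neutrophils, rose by 3.66 ± 0.53 in IRI vs Control (adjusted p = 2.27e-05) and by 4.93 ± 0.53 in IPC+IRI vs Control (adjusted p = 1.07e-06). Mpo, the myeloperoxidase gene, fell by 0.77 ± 0.21 (adjusted p = 0.0051) in the second of these comparisons. The granule protease gene Ela2 was not well above background on any array, Camp on 1 and Mmp9 on 3. The summed levels of the neutrophil markers and of the monocyte and macrophage markers overlapped between IRI+Hemin and IRI, as did the Il1b values.

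The summed level of the 17 monocyte and macrophage markers ran from 66.4 to 75.1 in Control, 67.7 to 72.3 in Hemin, 74.7 to 114 in IRI, 63.1 to 82.7 in IRI+Hemin and 70.2 to 112 in IPC+IRI. Most of this sum was the 1 gene Ly6c2, at 59.9% to 84.9% on every array. The other 16 markers summed to 11.6 to 15.1 in Control, 10.9 to 14.3 in Hemin, 16.4 to 20.3 in IRI, 16.1 to 24.3 in IRI+Hemin and 13.2 to 45.0 in IPC+IRI. Of the 17, 5 rose and 2 fell in IRI vs Control, 1 of those that fell being not well above background on all 8 arrays. Cd14, the lipopolysaccharide co-receptor, rose by 2.84 ± 0.29 (adjusted p = 7.49e-07) and Cd68, a lysosomal protein of macrophages, by 2.21 ± 0.31 (adjusted p = 2.07e-05), whereas Aif1 fell by 1.59 ± 0.42 (adjusted p = 0.00441). From IRI to IPC+IRI, Lyz2, the macrophage lysozyme, rose by 2.17 ± 0.38 (adjusted p = 2.40e-04) and Aif1 by 2.42 ± 0.42 (adjusted p = 2.59e-04), while Ly6c1 fell by 0.97 ± 0.17 (adjusted p = 2.81e-04) and Cd68 by 0.82 ± 0.31 (adjusted p = 0.0427). There, 6 of the 16 tested rose and 2 fell. From IRI to IRI+Hemin, where Il1b fell, 0 of the 16 tested rose and 2 fell, the Fc receptor gene Fcgr1 by 1.61 ± 0.47 (adjusted p = 0.0102) and Ly6c2 by 0.45 ± 0.14 (adjusted p = 0.0154). The 13 lymphocyte markers summed to between 0.491 and 1.57 on every array, and of the 7 that were well above background on all 8 arrays in IRI vs Control, 2 fell. The 4 other lymphocyte markers tested there were called lower, but not all of their arrays were well above background. The part of these cells in the values of the members was not tested.

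The counts of these marker lists and of the gene lists that follow are to be read against the shares of all genes, which were 16.3% higher and 34.8% lower in IRI vs Control, 25.8% and 17.7% in IPC+IRI vs IRI, 22.1% and 33.6% in IPC+IRI vs Control, 25.8% and 18% in IRI+Hemin vs IRI, and 18.1% and 17.6% in Hemin vs Control. They are a description, and nothing is taken from them as particular to a list. Of the 7 other caspases, 6 were tested in each comparison and Casp14 was not detected on any array. Casp4, the inflammatory caspase that senses intracellular lipopolysaccharide, rose most. It rose by 2.54 ± 0.33 in IRI vs Control (adjusted p = 9.29e-06) and by 3.34 ± 0.33 in IPC+IRI vs Control (adjusted p = 5.68e-07). The initiator Casp2 and the executioner Casp6 fell in IRI vs Control, Casp6 by 0.84 ± 0.16 (adjusted p = 3.46e-04), so that 1 of 6 rose and 2 fell. Casp2 was higher in IPC+IRI than in IRI by 0.58 ± 0.14 (adjusted p = 0.0023) and Casp6 by 0.49 ± 0.16 (adjusted p = 0.0201). In IRI+Hemin they were higher than in IRI by 0.46 ± 0.14 (adjusted p = 0.011) and 0.66 ± 0.16 (adjusted p = 0.00319). Casp2 also rose in Hemin vs Control, by 0.68 ± 0.14 (adjusted p = 0.00121).

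Of 25 inflammasome sensors and partners, 24 were on the arrays, and the sensors Aim2, Nlrp12 and Naip1 were not detected on any of them. In IRI vs Control, 3 rose and 3 fell of the 15 that were well above background on all 8 arrays. Of the 3 others tested, 2 were called lower. Txnip, a thioredoxin inhibitor that binds Nlrp3, rose by 1.22 ± 0.11 (adjusted p = 1.99e-07). The inflammasome gene Nlrc4 rose by 1.05 ± 0.24 (adjusted p = 0.00128) and the pyrin-binding Pstpip1 by 0.89 ± 0.27 (adjusted p = 0.0106). Nlrp6 fell by 1.07 ± 0.27 (adjusted p = 0.00304) and Naip2 by 0.89 ± 0.19 (adjusted p = 9.77e-04). Txnip was lower in IPC+IRI and in IRI+Hemin than in IRI, by 0.76 ± 0.11 (adjusted p = 6.39e-05) and 0.88 ± 0.11 (adjusted p = 1.77e-05), and lower in Hemin than in Control by 0.83 ± 0.11 (adjusted p = 9.12e-05). For IPC+IRI vs IRI, 4 of the 16 detected in this way rose and 2 fell, among them the channel gene Panx1 (0.98 ± 0.23, adjusted p = 0.00248) and the membrane rupture gene Ninj1 (-0.63 ± 0.21, adjusted p = 0.02). Of the other genes tested there, 1 was called higher and 0 lower. For IRI+Hemin vs IRI, 4 of 16 rose and 3 fell, with the ATP receptor P2rx4 higher by 0.81 ± 0.12 (adjusted p = 6.12e-05) and the peptidoglycan sensor Nod2 lower by 0.87 ± 0.13 (adjusted p = 8.86e-05). In Hemin vs Control, 5 of 16 rose and 2 fell, and of the other genes tested 1 was called lower and 0 higher.

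Of 23 further ligands, receptors and signal carriers of the interleukin 1 family, 22 were on the arrays, and the ligand Il1a was not detected on any of them. In IRI vs Control, 5 rose and 1 fell of the 12 that were well above background on all 8 arrays, and of the 4 others tested 1 was called higher and 2 lower. The receptor Il1r1, through which interleukin 1 beta signals, rose by 1.51 ± 0.23 (adjusted p = 3.22e-05) and Irak3, an inhibitor of that signalling, by 1.75 ± 0.46 (adjusted p = 0.00387), while the kinase Irak4 fell by 0.52 ± 0.19 (adjusted p = 0.0286). For IRI+Hemin vs IRI, 5 of 12 so detected fell and 0 rose. Among these, Il1r1 fell by 0.73 ± 0.23 (adjusted p = 0.0142), the co-receptor Il1rap by 0.80 ± 0.17 (adjusted p = 0.00142) and the alarmin Il33 by 1.04 ± 0.40 (adjusted p = 0.044). For IPC+IRI vs IRI, 3 of 12 fell and 0 rose, with Il1r1 lower by 0.68 ± 0.23 (adjusted p = 0.0208) and Il1rap by 0.82 ± 0.17 (adjusted p = 0.00124). Of the other genes tested there, 2 were called higher and 1 lower. In Hemin vs Control, 3 of 14 fell and 0 rose. Il1rap had 5 probes, which were averaged.

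The 21 death receptor and apoptosome partners of caspases 8 and 9 were all on the arrays, and 20 were tested. After IRI, against Control, 6 rose and 6 fell, 1 of the latter not well above background on all 8 arrays. The necroptosis effector Mlkl rose by 1.90 ± 0.30 (adjusted p = 6.07e-05), the ubiquitin ligase Birc3 by 1.63 ± 0.13 (adjusted p = 4.76e-08) and the death receptor Fas by 1.36 ± 0.17 (adjusted p = 5.59e-06). Fadd, the adaptor that recruits caspase 8, fell by 0.73 ± 0.14 (adjusted p = 3.39e-04), and Bid, a substrate of caspase 8, by 0.97 ± 0.15 (adjusted p = 4.64e-05). For IPC+IRI vs IRI, where Casp8 fell, 3 rose and 1 fell: cytochrome c (Cycs) rose by 0.90 ± 0.17 (adjusted p = 5.66e-04) and Birc6 fell by 0.85 ± 0.17 (adjusted p = 9.03e-04). For IRI+Hemin vs IRI, 4 rose and 3 fell, with Apaf1, the scaffold on which caspase 9 is activated, lower by 1.22 ± 0.31 (adjusted p = 0.00442) and Birc6 by 1.34 ± 0.17 (adjusted p = 2.11e-05). In Hemin vs Control, 3 rose and 3 fell.

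**Figure D5:**
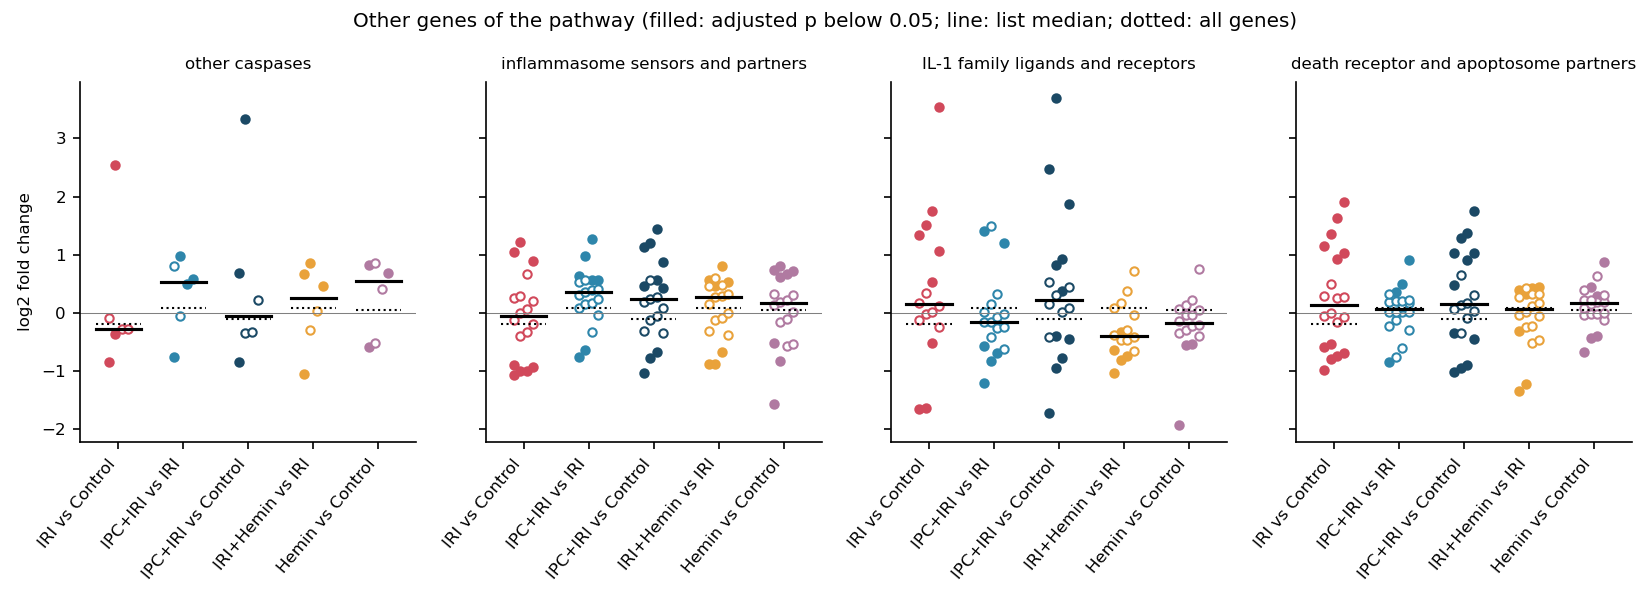
Log2 fold change (y axis) of the tested genes of 4 lists (panels) in 5 comparisons (x axis). Filled points passed an adjusted p below 0.05, solid lines give the list's median and dotted lines the median of all genes tested. The highest point of the first panel in IRI vs Control and in IPC+IRI vs Control is Casp4, at 2.54 and 3.34.

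For the 7 members well above background on all 20 arrays, the genes with the most similar course over the arrays were found among 14527 such genes, by the root mean square difference of centred log2 values. The nearest to Casp1 were Ptprc (0.214) and Psmb8 (0.218), where Casp1 itself varied with an SD of 0.445. Those to Casp8 were Tor1aip2 (0.117) and Ipo5 (0.146), at an SD of 0.415, and those to Casp9 were Mterfd2 (0.0958) and Mesdc2 (0.106), at 0.308. Pycard was nearest to Ppih (0.205) and Dcps (0.211), at an SD of 0.639. Necab2 was nearest to Nlrp3 (0.277, SD 0.554) and Serpina3g to Il1b (0.561, SD 1.09), the widest distances of the 7 members. Il18 was nearest to Ppt1 (0.123, SD 0.187).

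For Il1b, the ligand, and Il1rn, the antagonist at its receptor, the 250 bases ahead of the RefSeq transcript starts (build GRCm38.p6) are shown. All 8 members had at least 1 such window and together had 11. Both strands were searched for 4 motifs: a kappaB-type (GGG and CC with any 5 bases between), an AP-1-type (TGANTCA), a STAT-type (TTC and GAA with any 3 bases between) and an antioxidant-response-type motif (TGAC and GC with any 3 bases between). Of all 32851 windows of this length, 45.8%, 6.75%, 7.02% and 10.2% hold them. Capitals mark the matches. The Il1b window (chr2:129371140-129371389, minus strand) held none of them. Il1rn had 3 windows, of which the first (chr2:24336610-24336859, plus strand) held an AP-1-type and a kappaB-type match, not overlapping, and the last (chr2:24345121-24345370, plus strand) a kappaB-type match.
Il1b: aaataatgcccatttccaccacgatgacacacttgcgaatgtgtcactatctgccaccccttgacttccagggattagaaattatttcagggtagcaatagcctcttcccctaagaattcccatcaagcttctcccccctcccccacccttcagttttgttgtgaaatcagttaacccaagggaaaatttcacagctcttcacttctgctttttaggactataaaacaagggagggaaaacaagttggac
Il1rn, first window: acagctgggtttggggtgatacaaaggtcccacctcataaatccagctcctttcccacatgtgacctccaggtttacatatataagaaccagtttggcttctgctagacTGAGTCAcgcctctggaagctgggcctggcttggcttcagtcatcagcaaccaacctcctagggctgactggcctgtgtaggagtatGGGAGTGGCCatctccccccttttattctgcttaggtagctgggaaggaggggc
Il1rn, last window: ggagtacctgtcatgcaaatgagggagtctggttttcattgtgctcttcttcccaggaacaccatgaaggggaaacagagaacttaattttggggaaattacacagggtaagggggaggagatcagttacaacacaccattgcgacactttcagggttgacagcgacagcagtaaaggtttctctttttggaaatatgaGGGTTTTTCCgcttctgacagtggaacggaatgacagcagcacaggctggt
Of the remaining members, Casp1, Casp9 and Nlrp3 had a window with a kappaB-type match, and no window of any member held a STAT-type or an antioxidant-response-type match. A match in letters is a description of the window and not a site.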

How the data were processed

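The authors hybridised labelled kidney RNA to Agilent single-colour arrays, and the deposited scanner files hold the processed signal intensity of each spot, background-subtracted by Feature Extraction 9.5.3.1 per the file headers. The deposited matrix holds log2 values of this signal without scaling between arrays. For probes with 1 spot, 100% of its values lay within 0.001 of the unscaled log2 signal. It served as an alternative because 18.1% of its cells are blank. Spots marked as non-uniform or as population outliers were left out, spots of a probe were averaged, and the intensity was divided by the array's 75th percentile. Probes of a gene were averaged on the linear scale before log2 was taken. Genes with at most 1 missing value and at least 3 of 4 arrays well above background in either group were tested in limma 3.58.1 (R 4.3.3) with 5 group means on 20 arrays, 15 residual degrees of freedom and Benjamini-Hochberg adjustment per comparison. The number of arrays limits the precision. The fit was tested on simulated data. The genes named from each list are up to 3 rising and 3 falling genes past the threshold with all 8 arrays compared well above background. Of the genes nearest to a member detected on all arrays, 1 or 2 are named. The members and lists were chosen with earlier results of these data known. Results for some genes of the lists are not reported here.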

Additional observations from a re-analysis of the deposited data

Results flagged for a closer look

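A value was singled out when the gap between the highest or lowest array and its neighbour, over the range of the 4 arrays of its group, exceeded 0.829 (Dixon's 95% critical value). Of the 40 groups of the 8 genes, 7 held such an array, where chance gives about 1 in 20. For Casp8 these were Control replicate 2, at a log2 expression of 0.69 (gap over range 0.907), and IRI+Hemin replicate 4, at 1.10 (0.969). For Casp9 it was IRI replicate 4, at 0.94 (0.834), for Nlrp3 IRI replicate 1, at -2.20 (0.919), and for Pycard Control replicate 2, at 1.28 (0.846). For Il1b they were Control replicate 4, at -2.65 (0.842), and Hemin replicate 3, at -2.63 (0.895).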

How the results depend on the processing

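No direction reversed among called values. For IRI vs Control, 3 members were called higher and 3 lower. With normexp background correction these were 1 and 1, and with SAM 1 and 0. The members called lower were 1 without normalization between arrays, 1 in the fit of the compared arrays alone and 0 with the fold cutoff of the study. For IPC+IRI vs IRI (2 higher, 1 lower), 1 was higher with the mean of log2 values over probes, with the deposited matrix and with no filter on dim genes. There, SAM and the fold cutoff left 0 higher and 0 lower, and 0 were lower without normalization. For IPC+IRI vs Control (1 higher), 0 were higher with normexp, the fold cutoff or SAM, 2 with quantile normalization and 3 without normalization. For IRI+Hemin vs IRI (2 higher, 2 lower), 1 was higher with the brightest probe, the mean of log2 values, the deposited matrix, no filter or the compared arrays alone. There, 1 was lower without normalization, with genes well above background on all arrays compared, which leaves out Il1rn, or with the compared arrays alone, and SAM called 0 higher and 0 lower. For Hemin vs Control (0 called), 3 were higher without normalization, 1 with the strict background filter and 2 with the compared arrays alone. The interaction had 0 members called in all settings.

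Leaving out each array in turn gave 2 to 3 higher and 1 to 3 lower in IRI vs Control, 1 to 2 higher and 1 to 2 lower in IPC+IRI vs IRI, 1 to 2 higher and 0 to 1 lower in IPC+IRI vs Control, 1 to 2 higher and 0 to 2 lower in IRI+Hemin vs IRI, and 0 to 1 higher and 0 to 1 lower in Hemin vs Control. Where this gave a group 3 arrays, Il1rn was tested only if it still passed the filter.

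In IRI vs Control the deviations of same-numbered samples correlated at 0.127, 0.0519, 0.145 and 0.11, each above its best match with another number, but 1 pair was under 0.1. In the other comparisons they ran from -0.317 to 0.0592. The labels give no shared animal, day or batch for a number, so the numbers were not taken as pairing. With the replicate number as a block, 1 member was higher in IPC+IRI vs IRI and 1 in IRI+Hemin vs IRI, since Casp9 was lost in both (adjusted p = 0.0714 and 0.0721), and no other member's call changed. Slide as a random block was not run because it could not be fitted, each group lying on its own slide as inferred from the scan times.

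Over all genes, IRI vs Control called 2883 higher and 6171 lower, against 1670 and 1446 with normexp, 782 and 2059 with SAM, 488 and 2631 with the fold cutoff, and 3343 lower without normalization. IPC+IRI vs IRI called 4554 and 3120, against 2253 higher with normexp, 567 and 316 with SAM, 359 and 157 with the cutoff, and 584 lower without normalization. IPC+IRI vs Control called 4054 and 6162, against 2589 and 3206, 793 and 1554, 364 and 2670, and 6182 and 2041 in the same order, and 9473 lower with no filter. IRI+Hemin vs IRI called 4595 and 3216, against 2541 higher with normexp, 679 and 426 with SAM, 597 lower without normalization and 5655 lower with no filter. Hemin vs Control called 3366 and 3266, against 1898 and 1695, 225 and 770, 77 and 231, and 8766 and 477, and 5026 lower with no filter. The interaction called 1097 and 368, against 116 and 29 with normexp, 320 and 82 without normalization, 537 and 192 with the deposited matrix, 717 higher with the strict filter, and 219 to 576 lower on leaving out arrays.

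Without normalization the median log2 difference of all genes was 0.41 in IPC+IRI vs IRI, 0.35 in IPC+IRI vs Control, 0.45 in IRI+Hemin vs IRI and 0.62 in Hemin vs Control. The share of called genes that were higher went from 59.3% to 90.9%, 39.7% to 75.2%, 58.8% to 91.5% and 50.8% to 94.8%. The cause of these differences was not tested. Signal over background limits Il1rn, which has only bounds in Control and Hemin.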
